A study of Homo sapiens with 12 samples.

Results

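NRF2 and a set of antioxidant enzymes were followed at the transcript level in HL60 cells, an established line from acute myeloid leukemia that can be driven toward myeloid differentiation. The genes were chosen by name: NFE2L2, which encodes NRF2, with NQO1, GCLM, GCLC, TXNRD1, SRXN1, TXN, CAT, SOD2 and PRDX1, that is 10 of the 59251 genes in the count table. Earlier results of these data were known when the choice was made. All 10 passed the filter on low counts, which kept 13318 genes for testing. Bulk RNA-Seq covered 4 groups of 3 libraries: non-treated cells, cells given 1 µM ATRA (all-trans retinoic acid), cells given 1 µM CDK4/6i (palbociclib, an inhibitor of the cell cycle kinases CDK4 and CDK6), and cells given 1 µM of each (CDK4/6i+ATRA), with treatment for 48 h. All libraries came from the same cell line, so they describe that line alone. Libraries held between 12230923 and 18679544 counts, the lowest totals being those of CDK4/6i+ATRA.

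NRF2 is a transcription factor of the cap'n'collar family. In resting cells KEAP1 holds it and presents it for degradation, and when electrophiles or oxidants modify KEAP1, NRF2 accumulates, pairs with a small MAF protein and binds antioxidant response elements near its target genes. Known targets make glutathione, reduce thioredoxin, repair peroxiredoxins and supply NADPH, while BACH1 competes for the same elements. In myeloid cells these systems operate beside the phagocyte NADPH oxidase, which produces superoxide on purpose.

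The comparisons ask what each drug did alone, what the pair did, and whether the effect of ATRA differed in the presence of CDK4/6i (the interaction, a difference of log2 fold changes). Levels are given as CPM, counts per 1000000 after TMM scaling, which corrects library sizes for shifts in composition. A gene is described as called, or as having risen or fallen, where the quasi-likelihood test of edgeR, adjusted by Benjamini-Hochberg over all tested genes, gave a p under 0.05 (printed as edgeR adjusted p). Fold changes carry the standard error (SE) of the fit. The labels name the libraries of a group as biological replicates, and p-values measure the spread between them. In bulk RNA, fewer cells of a type and less RNA per cell cannot be told apart.

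The labelled cell type was checked against its markers. MPO, the myeloperoxidase of promyelocytes, averaged 6517 CPM in the non-treated libraries (SD 168), and 293, 3469 and 28.0 CPM in the ATRA, CDK4/6i and CDK4/6i+ATRA libraries. CTSG was also lower in treated cells (13.96, 0.623, 3.26 and 0.638 CPM in that order). Other markers of this list did not fall alike. CD33 had 93.9, 77.9, 118.5 and 99.8 CPM, SPI1 301.8, 463.4, 361.6 and 855.1 CPM, and CEBPE 169.5, 409.7, 196.6 and 284.5 CPM. The granule protease genes ELANE, AZU1 and PRTN3, which the table places on a chromosome and on an alternate contig, were listed at 0 in all 12 libraries. HL60 cells are known to express such genes, and how reads that match both copies were counted is not given in the sources used here, so these zeros are not read as absence. Of 15 marker genes of T cells, B cells, erythroid, epithelial and fibroblast cells, 11 never exceeded 3 counts in a library, and the most abundant, CD79A, reached 24.7 CPM. The differentiation marker ITGAM (CD11b) had means of 9.245 CPM in non-treated cells, 273.5 with ATRA, 24.25 after CDK4/6i and 589.5 after CDK4/6i+ATRA. ITGAX had 0.853, 26.46, 4.54 and 138.5 CPM in the same order. CD38 (0.179, 399.5, 0.188 and 405.4 CPM) and TGM2 (0.020, 2024, 0.020 and 1884 CPM) were high only where ATRA was given. The proliferation gene MKI67 had means of 663, 1028, 21.0 and 9.82 CPM in the same order, and TOP2A of 778.5, 1114, 58.2 and 13.1 CPM. With ATRA the cycling genes did not move alike, since CCNA2 had 251 CPM in non-treated cells and 249 CPM with ATRA, and MCM2 557 and 387 CPM. CCNA2 (15.7 and 3.96 CPM) and MCM2 (189 and 20.2 CPM) were low with CDK4/6i and CDK4/6i+ATRA. The groups thus differed in differentiation and cell cycle markers along with the genes described here, and the part of those differences in the results was not tested.

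Against non-treated cells, ATRA alone changed 8 of the 10 genes, where 67.6% of all tested genes were called. NFE2L2, TXNRD1 and SRXN1 rose slightly, and GCLC, TXN, CAT, SOD2 and PRDX1 fell. CDK4/6i alone changed 4 of the 10, beside 56.2% of all tested genes, with SRXN1 and CAT higher and NFE2L2 and SOD2 lower. CDK4/6i+ATRA changed all 10, beside 81.7% of all tested genes: NFE2L2, NQO1, GCLM, GCLC, TXNRD1 and SRXN1 were higher and TXN, CAT, SOD2 and PRDX1 lower, the directions of GCLM and GCLC turning when library size alone was used for scaling. These counts are close to the background, and the members differed from each other in the sizes of their changes. With a change of at least 2-fold, NFE2L2, NQO1, TXNRD1 and SRXN1, 4 of the 10, were called higher, against 22.3% of all tested genes, and CAT, SOD2 and PRDX1, 3 of the 10, were called lower, against 23.3%. For only 10 genes these shares are not far from the background either, and whether they differ from it was not tested.

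**Figure D1:**
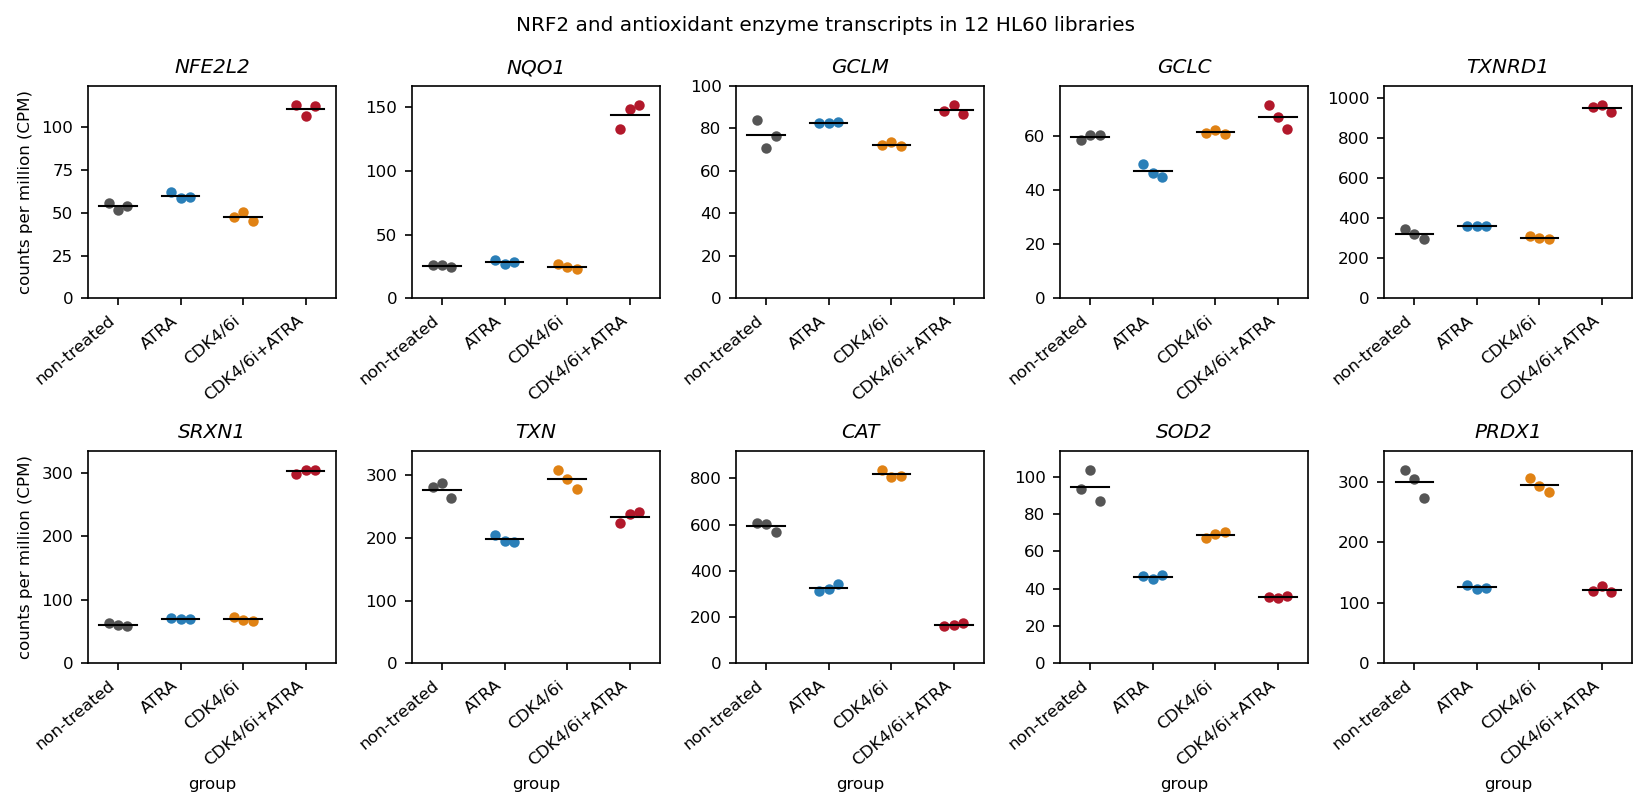
CPM (vertical axis, from 0) of the 10 transcripts in each of 12 libraries, by group (horizontal axis); each point is a library and the black line is the mean of 3. NFE2L2, NQO1, TXNRD1 and SRXN1 are highest in CDK4/6i+ATRA, with NQO1 between 133 and 152 CPM there, whereas CAT lies between 161 and 173 CPM in CDK4/6i+ATRA and between 805 and 836 CPM in CDK4/6i.

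The scaling bears on small changes. TMM factors were 0.840 to 0.893 in the CDK4/6i+ATRA libraries and 1.025 to 1.07 in the others. The 10 most abundant genes took 9.98% to 11.1% of the counts in CDK4/6i+ATRA and 6.34% to 8.28% elsewhere. With library size alone in place of TMM, the median log2 fold change of all tested genes for CDK4/6i+ATRA over non-treated cells moved from 0.02 to −0.25, and that of the interaction from −0.02 to −0.34. Of the genes called in CDK4/6i+ATRA against non-treated cells, 50.2% were higher with TMM and 40.5% with library size alone. The small changes of GCLM, GCLC and TXN depended on this choice in the comparisons named below. So did the interactions of SOD2 and PRDX1, and the change of PRDX1 in CDK4/6i+ATRA against ATRA.

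NFE2L2 (hg38 chromosome 2, 177230303 to 177264727, minus strand, 6 exons) encodes the factor itself. Its values in replicates 1, 2 and 3 were 55.5, 51.4 and 54.0 CPM in non-treated cells, 62.3, 58.6 and 59.3 CPM with ATRA and 47.7, 50.7 and 44.9 CPM with CDK4/6i. In CDK4/6i+ATRA they were 113, 106 and 112 CPM. The 3 CDK4/6i+ATRA libraries lay far above all others, and no pair of groups overlapped. The mean of CDK4/6i+ATRA was 2.06-fold that of non-treated cells (log2 fold change 1.04, SE 0.05; edgeR adjusted p = 4.3e-24, higher in 3 of 3 libraries). The changes with ATRA alone (0.16, SE 0.05) and CDK4/6i alone (−0.17, SE 0.05) were of opposite sign and small. The call for ATRA was lost without non-treated replicate 2 (0.13), and that for CDK4/6i without CDK4/6i replicate 3 (−0.13).

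NQO1, a quinone reductase that uses NADH or NADPH and a standard readout of NRF2 activity, showed the largest rise of the 10. Its libraries held 26.3, 26.2 and 24.4 CPM in non-treated cells, 29.8, 26.8 and 28.2 CPM with ATRA, and 27.0, 24.3 and 23.2 CPM with CDK4/6i. The CDK4/6i+ATRA libraries held 133, 149 and 152 CPM. CDK4/6i libraries overlapped with those of non-treated and of ATRA-treated cells, whereas CDK4/6i+ATRA stood clear of all. The mean was 5.63-fold that of non-treated cells (log2 fold change 2.50, SE 0.06; edgeR adjusted p = 3.9e-37). Neither drug alone gave a call: the log2 fold change was 0.14 with ATRA (SE 0.07; edgeR adjusted p = 0.079) and −0.04 with CDK4/6i (SE 0.07; edgeR adjusted p = 0.63). The ATRA change did pass the threshold under 5 other settings, at 0.16 to 0.19, among them the fit without ATRA replicate 2 (0.17), and the CDK4/6i value was 0.0 without CDK4/6i replicate 3.

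SRXN1, the sulfiredoxin that returns overoxidized peroxiredoxins to the active form, had nearly the same profile. Non-treated libraries held 62.6, 60.0 and 58.2 CPM, those with ATRA 70.8, 70.1 and 68.9 CPM, and those with CDK4/6i 72.2, 68.3 and 67.1 CPM. With CDK4/6i+ATRA they held 299, 305 and 305 CPM. Each single drug lay just above non-treated cells without overlap, and the pair lay far above both. The log2 fold changes were 0.21 for ATRA, 0.20 for CDK4/6i and 2.33 for the pair (SE 0.05, 0.05 and 0.04), the last a 5.02-fold rise (edgeR adjusted p = 1.3e-42).

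TXNRD1, the cytosolic thioredoxin reductase that passes electrons from NADPH to thioredoxin, was the most abundant of the rising transcripts. Its values were 343, 321 and 294 CPM in non-treated cells, 362, 358 and 362 CPM with ATRA, 311, 302 and 295 CPM with CDK4/6i, and 955, 962 and 927 CPM with CDK4/6i+ATRA. CDK4/6i and non-treated libraries overlapped, and the CDK4/6i+ATRA libraries were all at or above 927 CPM. The rise in CDK4/6i+ATRA was 2.97-fold (log2 fold change 1.57, SE 0.04; edgeR adjusted p = 1.7e-35), beside 0.18 with ATRA and −0.08 with CDK4/6i. The latter was not called, except without non-treated replicate 3 (−0.14).

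**Figure D2:**
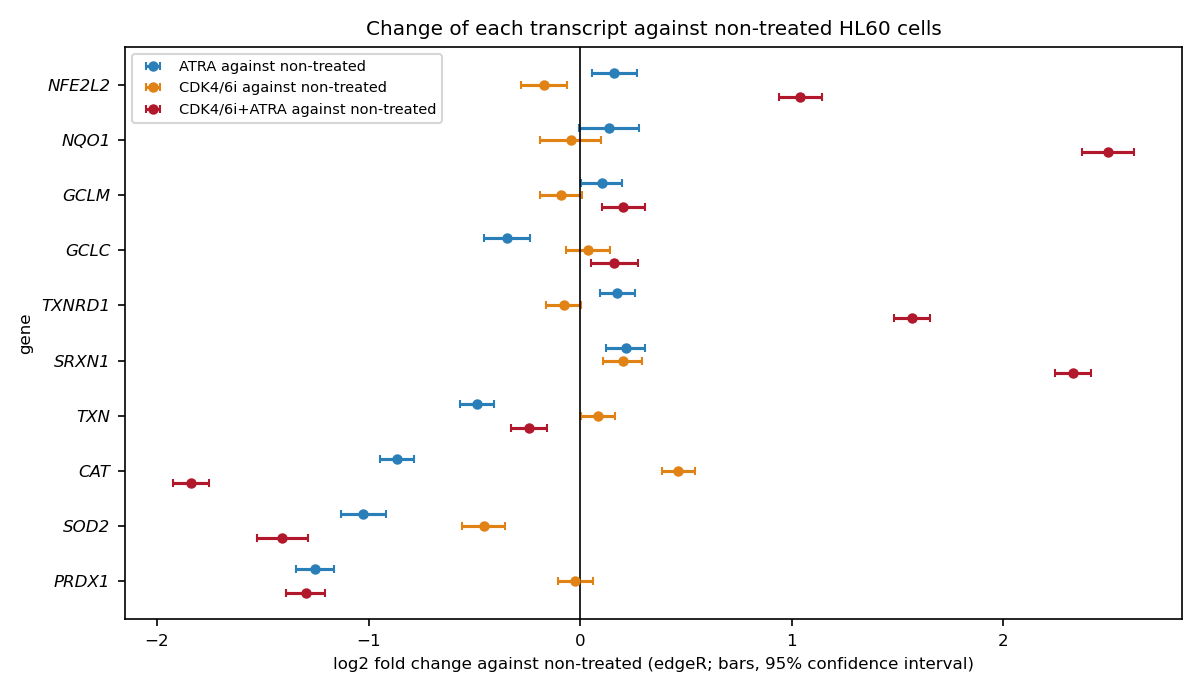
Log2 fold change against non-treated cells (horizontal axis) for each gene (vertical axis) with ATRA (blue), CDK4/6i (orange) and CDK4/6i+ATRA (red); points are edgeR estimates and bars their 95% confidence intervals. NQO1 (2.50), SRXN1 (2.33), TXNRD1 (1.57) and NFE2L2 (1.04) lie far right of 0 with CDK4/6i+ATRA alone, and SOD2, CAT and PRDX1 lie left of 0 with ATRA and with CDK4/6i+ATRA. The 3 comparisons share the non-treated libraries. The small positive values of GCLM and GCLC with CDK4/6i+ATRA turn negative when library size alone is used for scaling.

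Since these 4 transcripts rose together, the promoters were searched for letters of the antioxidant response element. Windows ran from 1000 bases before to 50 after each start of the RefSeq promoter table (GRCh38.p14), 1050 bases each, on both strands. Of the 10 genes, 9 had an entry, and PRDX1 had none. The core TGACNNNGC occurred in 33.7% of all 35116 windows. Its form TGACTCAGC, which also contains the AP-1 motif TGANTCA, occurred in 1.53%, and TGAGTCAGC, which contains TGANTCA but not the core and was added after the first matches had been seen, in 1.11%. TGANTCA itself occurred in 23.5%, and among the members also in windows of GCLM (884 and 551 bases before the start), GCLC (278) and SOD2 (830), outside the stretches shown. Stretches upstream of the start are shown for NQO1, SRXN1 and TXNRD1, which rose most, and for GCLM, which hardly changed, with the matched letters in capitals.
NQO1, chr16:69726987-69727035, minus strand, match 455 bases before the start: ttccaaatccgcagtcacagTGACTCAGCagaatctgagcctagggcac
SRXN1, chr20:653444-653492, minus strand, match 272 bases before the start: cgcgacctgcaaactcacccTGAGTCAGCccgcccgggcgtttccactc
TXNRD1, chr12:104286910-104286958, plus strand, core on the opposite strand, match 102 bases before the downstream start: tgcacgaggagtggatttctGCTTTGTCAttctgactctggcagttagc
TXNRD1, chr12:104215660-104215708, plus strand, match 99 bases before the upstream start, with a further core match 8 bases before it not shown: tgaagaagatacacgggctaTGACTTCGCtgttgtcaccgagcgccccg
GCLM, chr1:93909436-93909484, minus strand, core on the opposite strand, match 34 bases before the start: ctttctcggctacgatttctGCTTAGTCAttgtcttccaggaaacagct
The core was also found in the windows of GCLC (870 bases before the start), TXN (581) and the most upstream start of SOD2 (956), and not in those of SRXN1, NFE2L2 and CAT. Members that rose and members that fell thus both had core matches, and a match in these windows describes letters only.

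GCLM and GCLC encode the modifier and the catalytic subunit of glutamate-cysteine ligase, the rate-limiting enzyme of glutathione synthesis, and both are classical NRF2 targets. GCLM stood at 84.0, 70.9 and 76.3 CPM in non-treated cells, 82.5, 82.7 and 83.0 CPM with ATRA, 72.1, 73.5 and 71.6 CPM with CDK4/6i, and 88.3, 90.9 and 87.0 CPM with CDK4/6i+ATRA. GCLC stood at 58.6, 60.3 and 60.3 CPM in non-treated cells, 49.8, 46.5 and 44.7 CPM with ATRA, 60.9, 62.3 and 60.7 CPM with CDK4/6i, and 71.3, 67.0 and 62.4 CPM with CDK4/6i+ATRA. GCLM moved little, and its non-treated libraries overlapped with those of each single drug; GCLC was lowest with ATRA, without overlap between any groups. GCLC fell with ATRA (log2 fold change −0.35, SE 0.05; edgeR adjusted p = 2e-07) and was not called with CDK4/6i (0.04). GCLM was called with neither drug alone (0.10 with ATRA and −0.09 with CDK4/6i), except without non-treated replicate 1 for ATRA (0.17), non-treated replicate 2 for CDK4/6i (−0.15), and 5 other settings for ATRA (0.13 to 0.15). Against non-treated cells, CDK4/6i+ATRA gave log2 fold changes of 0.20 for GCLM and 0.16 for GCLC (SE 0.05 each), and with library size alone both turned, to −0.06 and −0.10, beside the median of −0.25 for all genes. The call for GCLC in this comparison was lost without CDK4/6i+ATRA replicate 1 (0.11), and with no filter both calls were lost.

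The subunits can be compared per length, as CPM per kb of exon. The ratio of GCLM to GCLC on that scale was 1.02, 0.833 and 0.896 in the non-treated libraries, 1.17, 1.26 and 1.31 with ATRA, 0.839, 0.836 and 0.835 with CDK4/6i, and 0.877, 0.961 and 0.988 with CDK4/6i+ATRA. The ATRA libraries were the highest and did not overlap with any other group. Their mean was 1.25 ± 0.07 (SD, n = 3), beside 0.915 ± 0.09, 0.836 ± 0.002 and 0.942 ± 0.06 in non-treated, CDK4/6i and CDK4/6i+ATRA cells. An exact two-sided permutation test gave p = 0.1 for ATRA against each other group and for CDK4/6i against CDK4/6i+ATRA, the smallest value that 3 against 3 allows (0.15 after adjustment over 6 pairs), so this test cannot place these differences under 0.05, and no other test of the ratio was run.

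TXN, the thioredoxin that TXNRD1 reduces, did not follow its reductase. It measured 281, 287 and 263 CPM in non-treated cells, 204, 195 and 194 CPM with ATRA, 309, 295 and 279 CPM with CDK4/6i, and 224, 238 and 241 CPM with CDK4/6i+ATRA. Non-treated and CDK4/6i libraries overlapped and lay above the groups that received ATRA. The log2 fold changes were −0.49 with ATRA (SE 0.04; edgeR adjusted p = 4e-15) and −0.24 with CDK4/6i+ATRA (SE 0.04; edgeR adjusted p = 7.6e-07), and 0.09 with CDK4/6i (SE 0.04; edgeR adjusted p = 0.063). The last passed the threshold under 7 other settings at 0.08 to 0.12, among them those without non-treated replicate 2, CDK4/6i replicate 3 or CDK4/6i+ATRA replicate 1.

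PRDX1, a cytosolic peroxiredoxin that draws electrons from thioredoxin, fell wherever ATRA was present. Its values were 319, 305 and 273 CPM in non-treated cells and 306, 293 and 284 CPM with CDK4/6i. They were 129, 123 and 125 CPM with ATRA and 119, 128 and 118 CPM with CDK4/6i+ATRA. The libraries split by ATRA, with overlap within each side and a gap of more than 2-fold between them. The fall was 2.38-fold with ATRA (log2 fold change −1.25, SE 0.04; edgeR adjusted p = 1.1e-29) and 2.46-fold with CDK4/6i+ATRA (−1.297, SE 0.05; edgeR adjusted p = 4.6e-30). With CDK4/6i alone the log2 fold change was −0.02 (95% confidence interval −0.11 to 0.06), turning to 0.03 without non-treated replicate 1 and 0.0 without CDK4/6i replicate 3. PRDX1 shares 364 exonic bases with MMACHC on the opposite strand, which had 3333 counts in all against 41215 for PRDX1.

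CAT, the catalase of peroxisomes, rose with CDK4/6i and fell with CDK4/6i+ATRA, the only gene of the 10 to do so. Libraries held 608, 601 and 569.9 CPM in non-treated cells, 313, 323 and 342 CPM with ATRA, 836, 805 and 811 CPM with CDK4/6i, and 161, 164 and 173 CPM with CDK4/6i+ATRA. No groups overlapped, and their order was CDK4/6i, non-treated, ATRA, CDK4/6i+ATRA. CDK4/6i raised CAT by 0.46 (SE 0.04; edgeR adjusted p = 7.8e-15), ATRA lowered it (−0.86, SE 0.04; edgeR adjusted p = 5.4e-25), and CDK4/6i+ATRA lowered it further (−1.84, SE 0.04; edgeR adjusted p = 4.5e-38), a 3.58-fold fall.

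SOD2, the mitochondrial manganese superoxide dismutase, fell in every treated group. Non-treated libraries held 93.5, 104 and 86.8 CPM, those with CDK4/6i 66.9, 69.4 and 70.6 CPM, those with ATRA 47.0, 45.4 and 47.1 CPM, and those with CDK4/6i+ATRA 35.7, 35.2 and 35.9 CPM. The groups descended in that order without overlap. The log2 fold changes were −0.46 with CDK4/6i (SE 0.05), −1.02 with ATRA (SE 0.05) and −1.41 with CDK4/6i+ATRA (SE 0.06; edgeR adjusted p = 7.3e-27). SOD2 shares 209 exonic bases with WTAP and 98 with ACAT2 on the opposite strand, and these genes had 15301 and 9690 counts beside 11990 for SOD2. The kit kept strand, but whether strand was used in counting is not given in the sources used here. Reads from these overlaps could therefore have been assigned to either gene or left uncounted.

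CDK4/6i+ATRA was next set against each drug. Against ATRA, 8 of the 10 genes were called, beside 69.8% of all tested genes. NQO1 (2.36), SRXN1 (2.11), TXNRD1 (1.39), NFE2L2 (0.88), GCLC (0.51) and TXN (0.24) were higher on the log2 scale, while CAT (−0.97) and SOD2 (−0.38) were lower. GCLM (0.10, edgeR adjusted p = 0.07) and PRDX1 (−0.04, edgeR adjusted p = 0.42) were not called. With library size alone TXN turned to −0.06, GCLM to −0.21, and PRDX1 was called at −0.35. PRDX1 was also called with no filter (−0.14) or with only these groups fitted (−0.11), and GCLM with at least 10 counts required (0.11).

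Against CDK4/6i, all 10 genes were called, beside 78.6% of all tested genes, and this comparison gives the effect of ATRA in the presence of CDK4/6i. NQO1 (2.54), SRXN1 (2.13), TXNRD1 (1.65), NFE2L2 (1.21), GCLM (0.29) and GCLC (0.12) were higher. CAT (−2.30), PRDX1 (−1.27), SOD2 (−0.95) and TXN (−0.33) were lower. The GCLC value turned to −0.15 with library size alone, and GCLM was then no longer called (0.02). The call of GCLC, but not that of GCLM, was also lost without any of 8 single libraries: non-treated replicate 1 or 2, ATRA replicate 2, CDK4/6i replicate 1, 2 or 3, or CDK4/6i+ATRA replicate 1 or 2, at 0.08 to 0.13.

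The interaction sets that effect of ATRA beside its effect without CDK4/6i. It was called for 8 of the 10 genes, beside 51.4% of all tested genes. For NQO1 the effect of ATRA rose from 0.14 to 2.54, an interaction of 2.40 (SE 0.09; edgeR adjusted p = 7.4e-27), and for SRXN1 from 0.21 to 2.13, an interaction of 1.91 (SE 0.06; edgeR adjusted p = 4.8e-30). TXNRD1 had an interaction of 1.47 (SE 0.06) and NFE2L2 of 1.05 (SE 0.07). The CDK4/6i+ATRA level of these 4 genes therefore exceeded the sum of the single-drug effects on the log2 scale. CAT went the other way, with an effect of ATRA of −0.86 without and −2.30 with CDK4/6i and an interaction of −1.44 (SE 0.06; edgeR adjusted p = 1.9e-26).

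The remaining interactions were small or not called. That of GCLC was 0.47 (SE 0.08; edgeR adjusted p = 9e-07), with the call lost at library size alone (0.15). Those of GCLM (0.19) and TXN (0.16) were called by edgeR but not by DESeq2, and with library size alone they turned to −0.13 and −0.16. The GCLM call was lost without non-treated replicate 1, CDK4/6i replicate 3 or CDK4/6i+ATRA replicate 2. The TXN call was lost without non-treated replicate 1 or 2, ATRA replicate 2 or 3, CDK4/6i replicate 3, or CDK4/6i+ATRA replicate 2 or 3. PRDX1 (−0.02, 95% confidence interval −0.15 to 0.11) and SOD2 (0.07, −0.09 to 0.24) were not called, so their response to ATRA was not shown to differ with CDK4/6i. Their signs were not fixed: PRDX1 turned without non-treated replicate 3 (0.03) or CDK4/6i replicate 1 (0.01), and SOD2 without non-treated replicate 2 (0.0) or with no filter (−0.01). PRDX1 became −0.34 and SOD2 −0.25 with library size alone, and both were called, beside a median of −0.34 for all genes.

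**Figure D3:**
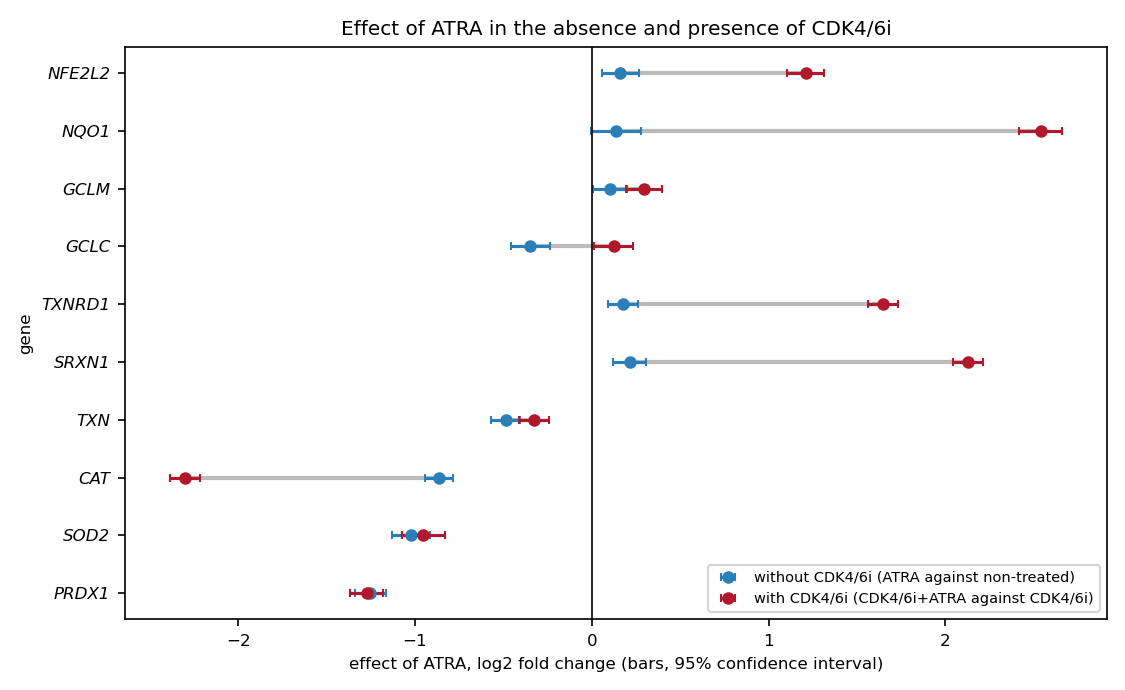
Effect of ATRA on each gene as log2 fold change (horizontal axis) without CDK4/6i (blue, ATRA against non-treated) and with CDK4/6i (red, CDK4/6i+ATRA against CDK4/6i); bars are 95% confidence intervals and grey lines join the values of a gene (vertical axis). The grey line is long for NQO1 (0.14 to 2.54), SRXN1, TXNRD1, NFE2L2 and CAT (−0.86 to −2.30), and the points nearly coincide for SOD2 and PRDX1. The short shifts of GCLM and TXN change sign when library size alone is used for scaling.

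Levels between genes were compared per length. In non-treated cells the order was TXN (376 CPM per kb), CAT (259), PRDX1 (234), TXNRD1 (75.0), SRXN1 (23.85), NFE2L2 (16.9), GCLC (15.8), GCLM (14.4), NQO1 (10.2) and SOD2 (5.38). CAT and PRDX1, and GCLC and GCLM, differed by about the sum of their SDs or less. TXN thus headed the list, followed by CAT and PRDX1, which remove hydrogen peroxide. In CDK4/6i+ATRA the order was TXN (318), TXNRD1 (222), SRXN1 (119.7), PRDX1 (95.3), CAT (72.4), NQO1 (57.3), NFE2L2 (34.7), GCLC (17.7), GCLM (16.6) and SOD2 (2.02), where GCLC and GCLM again lay within their SDs. Among the 13318 tested genes, NQO1 moved from position 4422 to 975 and TXNRD1 from 797 to 257, while CAT moved from 195 to 777. The SOD2 model is 17592 bases long, the summed exons of the table, which lowers its value per length.

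**Figure D4:**
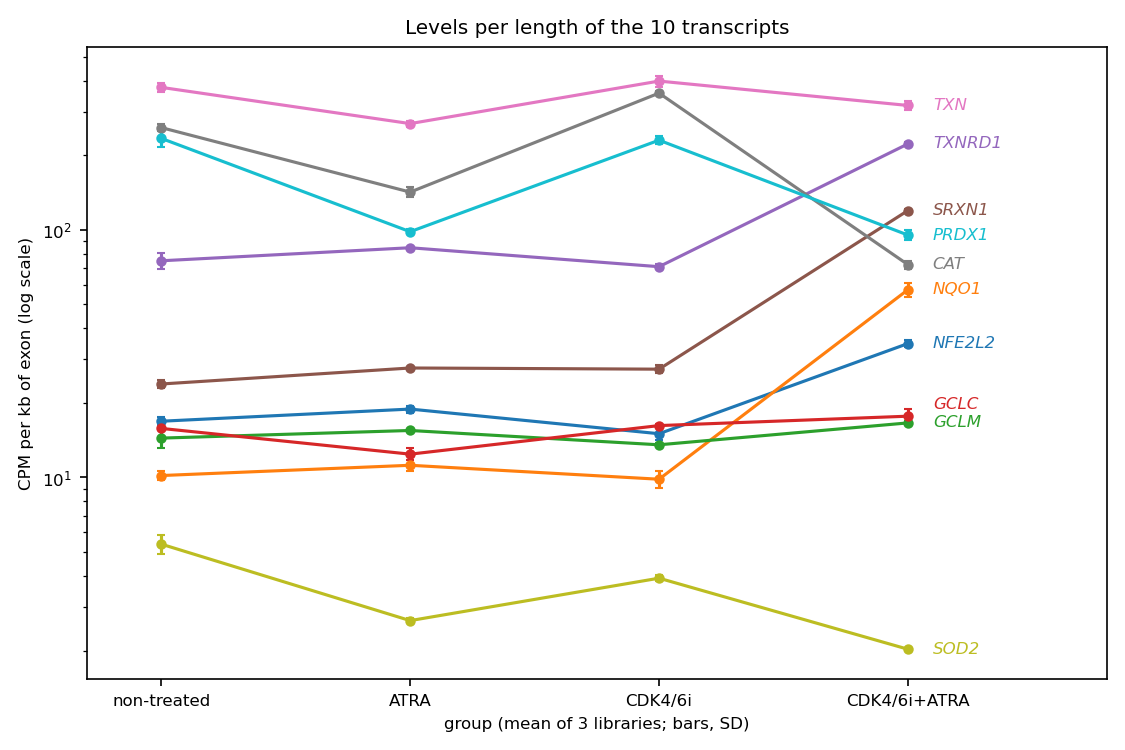
Mean CPM per kb of exon (vertical axis, log scale) of the 10 transcripts in each group (horizontal axis); bars are the SD of 3 libraries. The lines of TXNRD1 and SRXN1 climb past those of PRDX1 and CAT in CDK4/6i+ATRA, where TXNRD1 reached 222 and CAT 72.4 CPM per kb.

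The partners and regulators of NRF2 were followed as a list of 16 genes, all tested. In CDK4/6i+ATRA against non-treated cells 11 rose and 2 fell, with a median log2 fold change of 0.32, where 41.0% of all tested genes rose, 40.7% fell and the median was 0.02. With library size alone, 7 rose and 7 fell (median 0.05). At that scaling 4376 of all 13318 tested genes rose and 6431 fell (median −0.25). SQSTM1, the p62 adaptor that sequesters KEAP1, had group means of 134, 441, 261 and 1642 CPM in non-treated, ATRA, CDK4/6i and CDK4/6i+ATRA cells (log2 fold change 3.62, SE 0.05; the gene is also listed on a fix contig). BACH1, the repressor that competes with NRF2, had means of 45.3, 67.7, 50.8 and 263 CPM (2.54, SE 0.05). The small MAF genes differed among themselves: MAFF rose by 4.42 (SE 0.12) and MAFG by 1.22 (SE 0.04), while MAFK measured 0.03 (SE 0.05) and was not called, but was lower with library size alone (−0.235). KEAP1 rose by 0.25 (SE 0.04) and NFE2L1 by 0.16 (SE 0.04), and both turned to values under 0 with library size alone. NFE2L3, a relative of NRF2, fell (−1.93, SE 0.18), as did RBX1, a component of the ubiquitin ligase that acts with KEAP1 (−0.79, SE 0.06).

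Of 34 further genes of glutathione synthesis and use, 30 were tested; 14 rose and 13 fell in CDK4/6i+ATRA, close to the 41.0% and 40.7% of all tested genes, with a median of 0.14 that turned to −0.13 when library size alone was used (all genes −0.25). SLC7A11, the cystine importer, rose from 44.5 to 349 CPM (log2 fold change 2.97, SE 0.05), and was also higher with ATRA (1.42) and CDK4/6i (0.93). GSR, which regenerates glutathione, rose by 1.302, the glutaredoxin GLRX by 1.39, GPX1 by 0.70 and OPLAH, of the 5-oxoproline step, by 3.94. GSS, which completes glutathione after GCLC, fell (−0.82), as did GPX4 (−0.20), GGCT (−1.61), the mitochondrial glutaredoxin GLRX5 (−2.45) and CHAC2 (−3.57).

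In the list of other thioredoxins, peroxiredoxins and methionine sulfoxide reductases, 18 of 21 genes were tested; 7 rose and 9 fell, with a median of −0.18, beside the 41.0% and 40.7% of all tested genes. With library size alone 5 rose and 11 fell (median −0.45, all genes −0.25), where 4376 of all 13318 tested genes rose and 6431 fell. The peroxiredoxins divided. PRDX5 rose from 122 to 352 CPM (log2 fold change 1.53, SE 0.04), whereas PRDX2 (−1.23), PRDX3 of mitochondria (−1.14), PRDX4 of the endoplasmic reticulum (−3.15, from 72.2 to 8.13 CPM) and PRDX6 (−0.46) fell. With PRDX1, 5 of the 6 peroxiredoxin genes were thus lower in CDK4/6i+ATRA while the sulfiredoxin SRXN1 was higher. TXNIP, an inhibitor of thioredoxin, rose by 0.67, TXNDC17 by 1.54 and MSRB1 by 0.94, and TXNRD2, the mitochondrial reductase, fell (−0.34), as did MSRB3 (−2.68). SESN2 measured 0.11 (SE 0.11, not called).

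Of the superoxide dismutases and their chaperones beyond SOD2, 3 of 4 genes were tested; 1 rose and 2 fell, where 41.0% of all tested genes rose and 40.7% fell, with a median of −0.22 (all genes 0.02), or −0.49 with library size alone (all genes −0.25). SOD1, the cytosolic copper and zinc enzyme, fell from 192 to 75.2 CPM (log2 fold change −1.35, SE 0.05) and was lower with ATRA alone (−0.75). CCS, its copper chaperone, rose by 0.76 (SE 0.16), and PARK7 fell (−0.22, SE 0.04). SOD1 and SOD2 were therefore both lower in CDK4/6i+ATRA, by 1.35 and 1.41 on the log2 scale as falls.

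NADPH feeds both reductases and the oxidase. A list of 17 genes was compiled by hand for NADPH supply, and it includes folate enzymes that need not form NADPH themselves. Of these genes 16 were tested. In CDK4/6i+ATRA 5 rose and 11 fell, with a median of −0.71, where 41.0% of all tested genes rose and 40.7% fell. Library size alone gave 4 higher and 12 lower (median −0.98). At that scaling 4376 of all 13318 tested genes were higher and 6431 lower (median −0.25). The list had been shortened by 1 gene after the values were seen. PGD, an enzyme of the oxidative pentose phosphate pathway (means of 712, 2200, 1071 and 4044 CPM in the usual order of groups), rose by 2.51, the malic enzyme ME1 by 2.32 and NADK, the cytosolic NAD kinase, by 0.87. TKT rose by 0.16, a value that turned with library size alone, and TALDO1 (−0.20) and IDH1 (−0.39) fell slightly. The folate enzymes MTHFD1L (−4.90, from 101 to 3.35 CPM) and MTHFD1 (−4.06), and NADK2 of mitochondria (−3.02), fell most in this list. The fall of MTHFD1L is that of a folate enzyme and is not read as a loss of NADPH formation. ME1 stood at 31.2 CPM in non-treated and in ATRA-treated cells and rose with CDK4/6i alone (0.66, SE 0.06), unlike NQO1, and its interaction was 1.66 (SE 0.085).

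**Figure D5:**
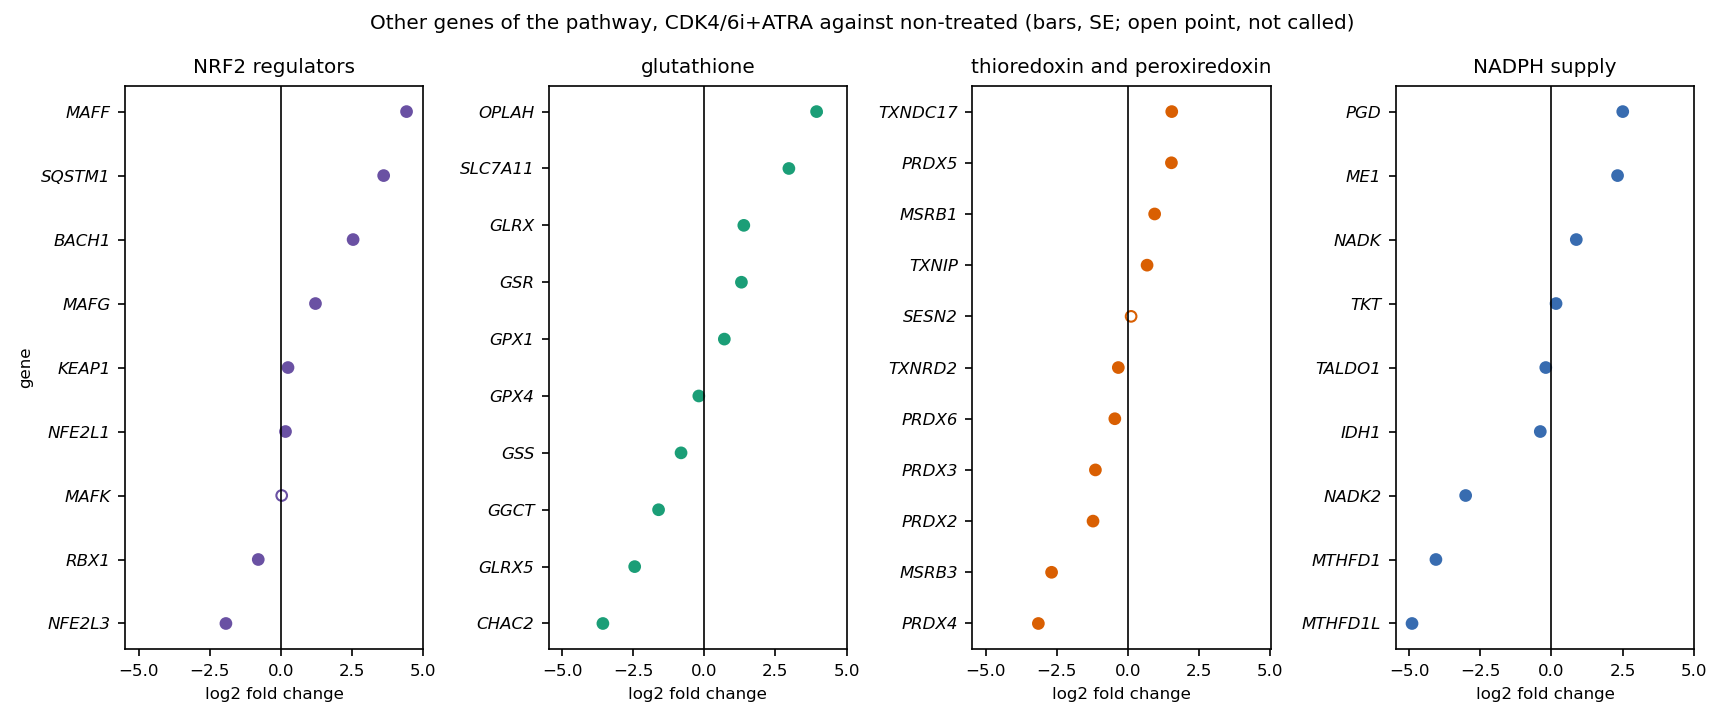
Log2 fold change in CDK4/6i+ATRA against non-treated cells (horizontal axis) of named genes (vertical axis) of 4 lists; filled points were called, open points were not, and bars are the SE. Every list shown holds genes on both sides of 0, from MAFF (4.42) to NFE2L3 (−1.93) among the regulators and from PGD (2.51) to the folate enzyme MTHFD1L (−4.90) in the list for NADPH supply. KEAP1, NFE2L1 and TKT turn to values under 0 when library size alone is used for scaling.

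Of 29 other genes known as NRF2 targets, 24 were tested; 15 rose and 6 fell in CDK4/6i+ATRA, with a median of 0.85, where 41.0% of all tested genes rose and 40.7% fell. HMOX1, heme oxygenase, rose by 4.08 (SE 0.19) from a low level, 1.23 to 21.0 CPM, and RIT1 from 16.4 to 239 CPM (3.87). AKR1C3 went from 2 to 4 counts per library in non-treated cells to a mean of 21.5 CPM with ATRA and 20.01 CPM with CDK4/6i+ATRA. ABCC4 (−2.39), TRIM16 (−1.61) and CBR1 (−0.76) fell. Unlike NQO1, HMOX1 already rose with ATRA (1.85) and with CDK4/6i (1.97), and its interaction of 0.26 (SE 0.30) was not called. With ATRA alone 14 of the 24 rose and 4 fell, where 32.1% of all tested genes rose and 35.5% fell. With CDK4/6i alone 13 rose and 2 fell, where 28.3% of all tested genes rose and 27.9% fell. The interaction was positive for 7 of the 24, negative for 4 and not called for 13 (median −0.07). Of all tested genes, 24.5% had a positive and 27.0% a negative interaction. Library size alone gave 6 positive and 9 negative (median −0.39), where 1375 of all 13318 tested genes were positive and 6061 negative (median −0.34).

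The phagocyte NADPH oxidase, a source of superoxide, was followed in 5 genes, a list shortened by 1 gene after the values were seen. All 5 that remained were higher in CDK4/6i+ATRA than in non-treated cells (median 1.76), and also with ATRA (0.97) and with CDK4/6i (0.78). Of all tested genes, 41.0%, 32.1% and 28.3% were higher in these comparisons, with medians of 0.02, −0.03 and 0.02. CYBB, its catalytic subunit, had means of 132, 2079, 448 and 3017 CPM, and the small GTPase RAC2 rose by 1.76 (SE 0.04). NCF1 rose by 5.28 (SE 0.05), but it has near-identical pseudogenes, so its counts are uncertain. CYBB had a negative interaction (−1.23, SE 0.06), opposite in sign to that of NQO1.

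SOD2 is also a known target of NF-kB, so a list of NF-kB feedback genes and targets was read beside it. Of 9 genes 8 were tested, and all 8 rose in CDK4/6i+ATRA (median 2.67) and with ATRA (1.01), where 41.0% and 32.1% of all tested genes rose. With CDK4/6i, 6 rose and 2 were not called (median 0.83), beside 28.3% of all tested genes. NFKBIA, the inhibitor that NF-kB induces, rose from 21.3 to 125 CPM (log2 fold change 2.56, SE 0.06), TNFAIP3 from 15.8 to 70.4 CPM (2.16, SE 0.07) and BIRC3 from 3.11 to 38.2 CPM (3.61, SE 0.13). ICAM1 went from 0.576 to 1063 CPM. SOD2 moved in the opposite direction to all 8 in CDK4/6i+ATRA and with ATRA.

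Likeness of pattern was measured over the 12 libraries as the root mean square difference of log2 CPM after each gene's mean was removed, among 9299 genes with a mean of at least 5 CPM. Nearest to NFE2L2 were PLAGL1 (0.082), VPS37C (0.0834) and NCOA7 (0.0841), with 293 genes within 0.2. Nearest to NQO1 were ZEB2 (0.147), SRXN1 (0.152) and BACH1 (0.182), and only 3 genes lay within 0.2 of it. SRXN1 was thus a near neighbour of NQO1, whereas TXNRD1 stood at position 62 (0.398) and NFE2L2 at position 526 (0.615). The measure depends on the size of a change as well as its shape, so numbers of neighbours do not compare shapes alone. Nearest to SOD2 were SEH1L (0.0634), SHMT2 (0.0703) and ESYT2 (0.0768), with 333 genes within 0.2. Among the members, TXNRD1 was closest to NFE2L2 (0.228) and PRDX1 closest to SOD2 (0.247). Among all 9299 genes these were only positions 498 and 697.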

How the data were processed

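RNA was taken from HL60 cells, and libraries were made with a directional kit. The authors deposited raw counts per gene. Per the labels, Trimmomatic 0.33 and STAR 2.7.11a on hg38 were used. The study's methods name RSEM for counting, whereas the columns of the table have the layout of featureCounts; the values are whole numbers, and whether strand was used in counting is not given in the sources used here. Groups came from the labels, which number the replicates.

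Counts were filtered with filterByExpr and scaled with TMM in edgeR 4.0.16 (R 4.3.3), and a quasi-likelihood test on 4 groups (8 residual degrees of freedom) gave 5 comparisons and the interaction, adjusted over 13318 genes. DESeq2 1.42.0 was an alternative. On simulated data with 200 changed genes, edgeR recovered 159 for ATRA and 152 for CDK4/6i+ATRA, each against non-treated, and 142 for the interaction. Of 67 genes changed 1.5-fold it recovered 47, 41 and 40. DESeq2 was run there for the interaction only and recovered 135 of the 200. Far more genes were called in the data, so the simulation does not cover their shift in composition. CPM used TMM library sizes, and per kb the exon length that the table deposited with the counts gives. By total counts, without the TMM factors, a count of 3 was 0.161 to 0.245 CPM. Such floors cover counting error only. Replicates differed by more than sampling noise. The members and lists were chosen with earlier results of these data known. After the values were seen, the lists of NADPH supply and of the NADPH oxidase were shortened by 1 gene each, not reported here, so their counts and medians are those of the shortened lists. Named genes were the members, a fixed set of pathway genes, the 3 largest rises and falls called in CDK4/6i+ATRA against non-treated cells with a mean of at least 5 CPM from each list, and the 3 genes nearest in pattern to NFE2L2, NQO1 and SOD2. Markers of cell types and the cell cycle were listed separately. Other choices tried were library size alone, DESeq2 size factors in edgeR, a replicate block, fits on only the groups compared, no filter, a filter of at least 10 counts per library, and leaving out each library. The letters TGAGTCAGC were added to the motif search after the first matches were seen. Promoter sequence was from RefSeq (GRCh38.p14), extended in hg38, where all 35116 windows were identical.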

Additional observations from a re-analysis of the deposited data

Results flagged for a closer look

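The effect of ATRA differed between cells with and without CDK4/6i, by the test of the interaction, for 8 of the 10 genes, where 51.4% of all tested genes were called. The difference of the log2 fold changes was 2.40 for NQO1, 1.91 for SRXN1, 1.47 for TXNRD1, 1.05 for NFE2L2, 0.47 for GCLC, 0.19 for GCLM and 0.16 for TXN, the values of GCLM and TXN turning with library size alone and not being called by DESeq2, and that of GCLC not being called with library size alone (0.15). For CAT it was −1.44.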

How the results depend on the processing

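The number of genes called, and of members called, stayed within 1.5 times the main count in all 6 comparisons under every alternative run; without a single library, members called ranged from 7 to 9 for ATRA, 4 to 6 for CDK4/6i and 9 to 10 for the pair, each over non-treated cells, and from 6 to 8 for the interaction. Of the log2 fold changes of members recomputed, 1070 kept both direction and side of the threshold, 30 lost the call, 25 gained it and 15 turned. With library size alone 8 turned: GCLM to −0.06 and GCLC to −0.10 for the pair over non-treated cells, GCLM to −0.21 and TXN to −0.06 against ATRA, GCLC to −0.15 against CDK4/6i, and the interactions of GCLM to −0.13, TXN to −0.16 and SOD2 to −0.25. The median of all genes moved with that setting, and the cause was not tested. The other 7 turned near 0 and were called in neither fit: the SOD2 interaction with no filter (−0.01), and values without a single library, whose ranges were −0.12 to 0.0 for NQO1 and −0.09 to 0.03 for PRDX1 with CDK4/6i, and 0.0 to 0.12 for SOD2 and −0.08 to 0.03 for PRDX1 in the interaction. It also moved the share of higher genes among those called from 53.0% to 31.6% against ATRA, from 49.8% to 36.7% against CDK4/6i and from 47.5% to 18.5% for the interaction, the last being 37.9% with no filter. With a replicate block, 8915, 7392 and 10824 genes were called for ATRA, CDK4/6i and the pair over non-treated cells, 9213 and 10416 for the pair against each drug and 6775 for the interaction, and it changed no call among the members; the numbers did not pair the libraries (18 same-number pairs, correlation of deviations −0.0702 to 0.0328). The GCLM to GCLC ratio without division by length was 1.29, 1.76, 1.18 and 1.33 in non-treated, ATRA, CDK4/6i and CDK4/6i+ATRA cells, by construction.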
